A study of Drosophila melanogaster with 10 samples.

Results

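AGO2 is the Drosophila Argonaute protein that carries small interfering RNAs, and the 51B allele of its gene is a null allele. Libraries that differ in the labelled dose of this allele were compared here, those labelled 51B against those labelled 51B/+ (replicates 3 and 4 each). These are 4 of the 10 libraries of the series, taken by their strain label. By label, 51B is the null strain and 51B/+ carries the allele over a wild-type copy. The AGO2 counts went against these labels, at 53.8% of the control strain w in labelled 51B and 1.76% in labelled 51B/+. The other 6 libraries are of V966M (a catalytic mutant of AGO2), V966M/+ and the control strain w, with 2 libraries each, and serve here as context. All 10 libraries held polyadenylated RNA of whole female larvae of Drosophila melanogaster in the third instar, and the design text gives 2 biological replicates. The number of larvae in a library, their exact age and the genetic background of the strains are not given in the sources used here. The question of this comparison is which genes follow the dose of the null allele. Whole larvae mix fat body, gut, muscle, salivary gland, neurons and gonads, so that fewer cells of a type and less RNA per cell cannot be told apart.

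In the RNA interference pathway, Dicer-2 cuts long double-stranded RNA into small interfering RNAs, R2D2 helps to load them, and AGO2 slices the transcripts they pair with. The microRNA pathway uses other proteins, chiefly Dicer-1 and AGO1. AGO2 has also been described in the nucleus, next to chromatin insulator proteins, RNA polymerase II and the nuclear lamina. For this reason the genes of those machineries were examined as classes beside the tissue classes of the larva.

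The AGO2 gene itself (FBgn0087035; chromosome arm 3L, 15554113 to 15561042, plus strand, dm6) went against the labels. It was counted at 105 and 99.7 CPM (counts per 1e+06 after TMM scaling, replicate 3 first throughout) in the libraries labelled 51B, against 3.85 and 2.84 CPM in those labelled 51B/+. The control strain w had 229 and 152 CPM. AGO2 was therefore at 53.8% of the mean of w in labelled 51B and at 1.76% in labelled 51B/+, and no library of either strain came near the other strain. The log2 fold change of labelled 51B over labelled 51B/+ was 4.92 (SE 0.33; adjusted p = 0.00043, edgeR's quasi-likelihood test). An exon of AGO2 overlaps the gene CG7739 on the opposite strand, and the counting did not use strand. CG7739 stood at 49.1 and 46.4 CPM in labelled 51B and at 49.2 and 59.4 CPM in labelled 51B/+. The titles of the samples labelled 51B/+ carry the allele name on both sides of a hyphen, and those labelled 51B carry it alone. The titles of V966M/+ and V966M have the same form. Every sign of labelled 51B over labelled 51B/+ below follows the strain labels, and an exchange of the labels of these strains would turn each of them.

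The 4 libraries had 38930502 and 22337432 counts (labelled 51B) and 47012237 and 22795859 counts (labelled 51B/+). Replicate 3 was the deeper library in each of the 5 strains, so the log2 ratios within each replicate number were examined too. Libraries of the same strain differed by far more than sampling noise (chi-square per degree of freedom of 118 in labelled 51B and 142 in labelled 51B/+). A count of 0 allows up to 3 counts, or 0.0657 to 0.149 CPM in these libraries, and such limits cover counting error only. The library of labelled 51B/+ replicate 3 stood apart. It alone held reads of the 10 Y-linked protein genes examined (17 counts, against 0 in each of the other 9 libraries). FDY, another Y-linked gene, was not among these 10 and had reads in every library, with 7 and 7 counts in labelled 51B and 21 and 4 counts in labelled 51B/+. Further, the 55 tested genes of the testis list summed to 127 CPM there, against 29.6 and 31.0 CPM in labelled 51B and 27.4 CPM in labelled 51B/+ replicate 4. Results that rest on this library are given with and without it. The mitochondrial genome took 16.5% and 11.6% of counts in labelled 51B, and 10.6% and 7.28% in labelled 51B/+. Markers of the labelled tissue and stage were abundant, as Sgs3, a salivary glue gene, had 4766 and 3057 CPM in labelled 51B and 6918 and 4933 CPM in labelled 51B/+.

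Of 13551 genes tested, 11 differed between labelled 51B and labelled 51B/+ at an adjusted p under 0.1 (0.0812% of genes). Higher in labelled 51B were 8 (0.059%): AGO2, Lsp1gamma, mthl8, Jon74E, CG7900, Ir76a, CG31380 and CG32073. Lower were 3 (0.0221%): lncRNA:CR46061, CG34278 and Mst87F. The strains did not overlap for any of the 11, while 16.8% of all genes tested were higher and 18.1% lower without overlap. Without overlap, the ratios within replicate 3 and within replicate 4 must have the same sign, as they had in all 11. The same libraries gave the calls, so neither count is separate support for them. By comparison, 248 genes were higher and 559 lower at an unadjusted p under 0.05. The count depended on the tool: DESeq2 called 106 genes and the exact test of edgeR 124, and each of these sets held all 11. It depended as well on 1 library, since the fit without labelled 51B/+ replicate 4 called 171 genes, of which 20 were testis genes, while the fit without labelled 51B/+ replicate 3 called 12, of which 8 were among the 11. Without labelled 51B replicate 3 there were 8 genes, and without labelled 51B replicate 4 there were 7. AGO2, Lsp1gamma, mthl8, Jon74E and lncRNA:CR46061 kept their call in all 15 alternatives, and the other 6 lost it in at least 1.

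**Figure D1:**
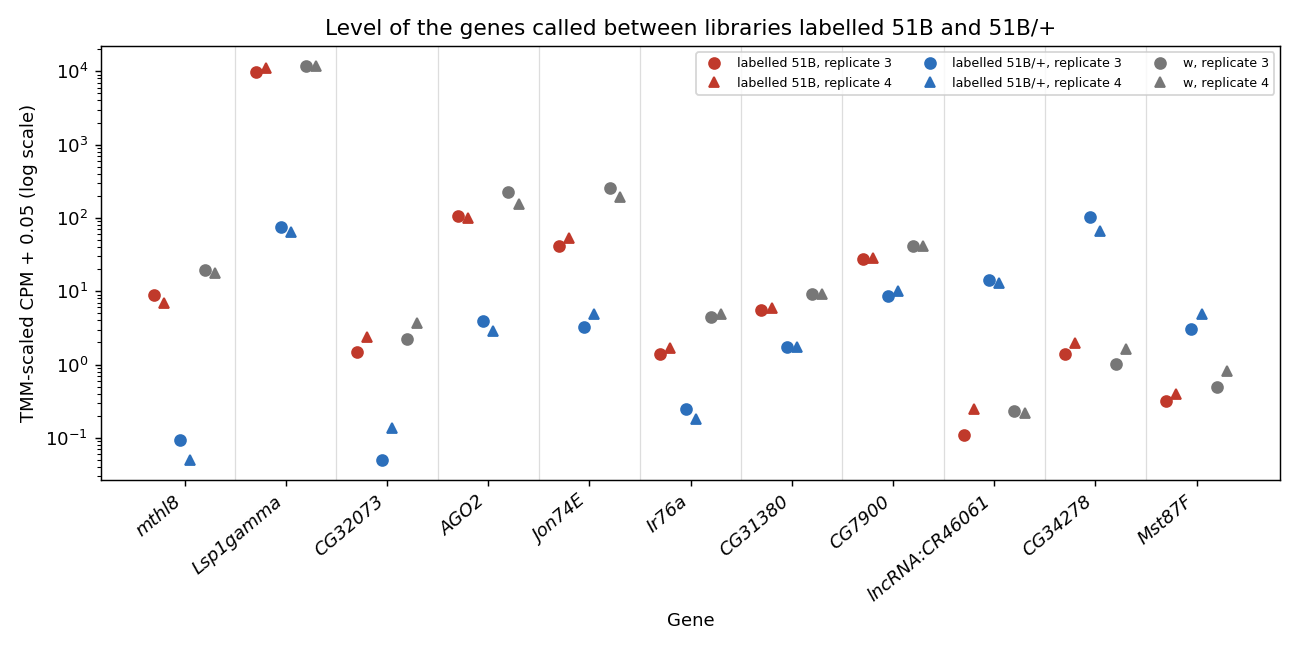
Level of the 11 genes called between labelled 51B (red) and labelled 51B/+ (blue), with w (grey), as TMM-scaled CPM plus 0.05 on a log axis; circles are replicate 3 and triangles replicate 4. The first 8 genes are higher in labelled 51B and the last 3 lower, and the 2 libraries of each strain lie close together next to the gap between the strains.

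**Figure D2:**
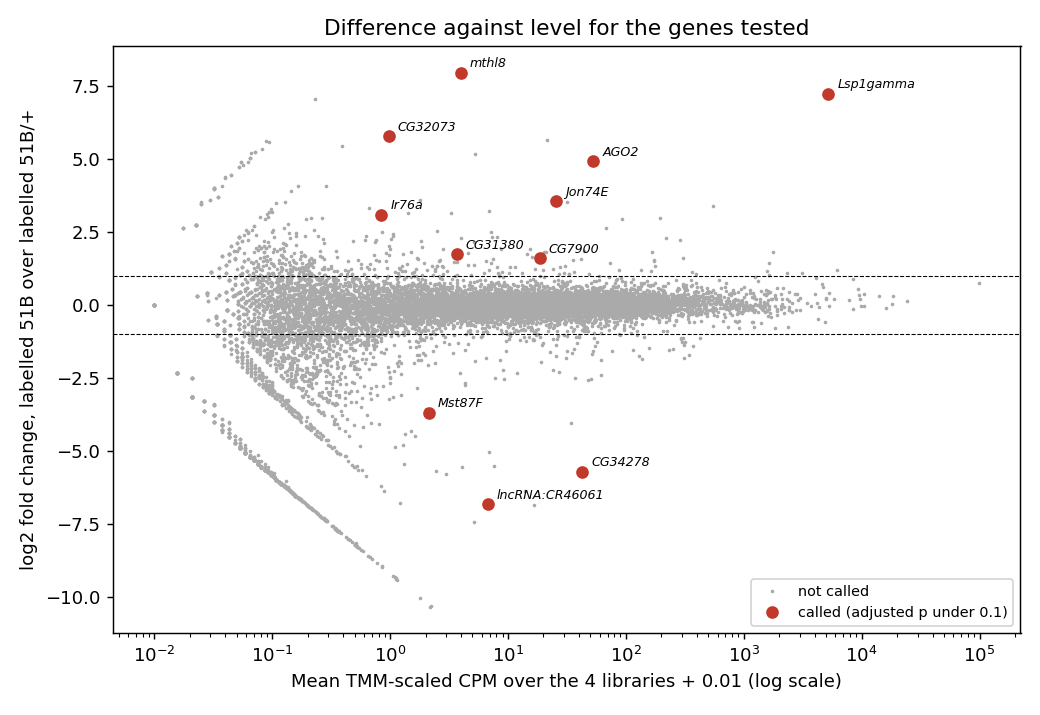
log2 fold change of labelled 51B over labelled 51B/+ for the 13551 genes tested, against their mean TMM-scaled CPM plus 0.01 over the 4 libraries (log axis). Red points are the 11 genes called and dashed lines mark a log2 fold change of 1 and -1; the spread of the grey points widens at low levels, and the lines of points below -2.5 at the left are genes with few or no reads in labelled 51B.

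The most abundant of these genes was Lsp1gamma (FBgn0002564; 3L, 66430 to 68995), a subunit of larval serum protein 1, the storage hexamer that the fat body secretes before metamorphosis. It had 9654 and 11015 CPM in labelled 51B, against 74.6 and 63.8 CPM in labelled 51B/+, and 11943 and 11710 CPM in w. The level in labelled 51B was thus 87.4% of the mean of w, and that in labelled 51B/+ was 0.585%. The log2 fold change was 7.22 (SE 0.47, adjusted p = 0.00043), with ratios of 7.01 within replicate 3 and 7.42 within replicate 4. The other 5 fat body storage genes listed were not called by this test, by DESeq2 or by the exact test of edgeR, and none of them had an unadjusted p under 0.05. Lsp1beta, the most abundant of them, had 22744 and 28155 CPM in labelled 51B and 23294 and 23349 CPM in labelled 51B/+ (log2 fold change 0.13, SE 0.36). Lsp1alpha, which encodes the remaining subunit of the hexamer, had 19371 and 21451 CPM in labelled 51B and 15059 and 17951 CPM in labelled 51B/+ (0.31, SE 0.45). The difference in this family was thus called in Lsp1gamma alone, and the interval of 4 of its 6 genes lay within a log2 fold change of 1 in either direction.

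A gene of the methuselah family of G protein-coupled receptors, mthl8 (FBgn0052475; 3L, 22428 to 26308), was nearly without reads in labelled 51B/+. It had 303 and 140 counts (8.97 and 6.96 CPM) in labelled 51B, against 2 and 0 counts in labelled 51B/+, and 19.5 and 17.8 CPM in w. The summed counts, scaled to library size, differed by a ratio of 281, with a counting interval from 77.4 to 2331 (adjusted p = 0.00043). The libraries of V966M/+ had 0 CPM of mthl8 as well, and those of V966M 7.44 and 5.97 CPM. Lsp1gamma and mthl8 lie near each other at the tip of 3L, 15.5 Mb from AGO2. Of the 16 methuselah family genes tested, mthl8 was the only one called, and 10 had an interval within 1. The most abundant, mthl3, had 88.2 and 65.8 CPM in labelled 51B and 67.1 and 46.0 CPM in labelled 51B/+ (log2 fold change 0.45, SE 0.30).

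The long noncoding RNA gene lncRNA:CR46061 (FBgn0267730; 3R, 26235325 to 26252932) showed the opposite pattern. It had 2 and 4 counts in labelled 51B (0.059 and 0.20 CPM), against 637 and 292 counts in labelled 51B/+ (14.0 and 12.8 CPM). In w it was at 0.18 and 0.17 CPM, and in V966M and V966M/+ at 0.030 to 0.43 CPM, so it was abundant in labelled 51B/+ alone among the 5 strains. The log2 fold change was -6.82 (SE 0.47, adjusted p = 0.00043). Another noncoding gene, lncRNA:CR46062, overlaps these coordinates on the same strand with no exon in common, and had 0 and 0 CPM in labelled 51B, against 1.58 and 1.79 CPM in labelled 51B/+ (adjusted p = 0.19).

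Jon74E (FBgn0023197; 3L, 17548077 to 17549127) encodes a serine protease of the Jonah family, which is expressed in the gut. It had 41.5 and 53.1 CPM in labelled 51B and 3.24 and 4.86 CPM in labelled 51B/+, and w was above both at 255 and 193 CPM. The log2 fold change was 3.56 (SE 0.34, adjusted p = 0.0053), and the gene was called in every alternative. It lies 1.99 Mb from AGO2. The other gut serine proteases of the 28 tested were not called. By DESeq2 3 genes of the class were called higher, Jon74E among them, and by the exact test of edgeR 1. Over all genes, these tools called 55 of 13551 and 61 of 12661 higher. Jon25Biii, the most abundant, had 659 and 2815 CPM in labelled 51B and 504 and 2232 CPM in labelled 51B/+, so that replicate 4 was above replicate 3 in both strains. The median log2 fold change of the class was 0.26, with 0.87 within replicate 3 and -0.07 within replicate 4. It was -0.33 without labelled 51B/+ replicate 3, 1.49 without labelled 51B/+ replicate 4, 0.57 without labelled 51B replicate 3 and -0.03 without labelled 51B replicate 4, so the class as a whole had no stable direction.

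Several called genes had smaller differences at modest levels. CG7900 (FBgn0037548; 3R, 8094124 to 8105083) had 27.5 and 28.6 CPM in labelled 51B, against 8.45 and 9.98 CPM in labelled 51B/+, and 41.9 and 40.7 CPM in w (log2 fold change 1.61, SE 0.16, adjusted p = 0.0059). Its call was lost in the fit of the 4 libraries alone (adjusted p = 0.16). CG31380 (FBgn0051380; 3R, 25787997 to 25789455) had 5.47 and 5.86 CPM in labelled 51B and 1.69 and 1.71 CPM in labelled 51B/+, with 9.11 and 9.07 CPM in w. These pairs lay close together next to the gap between them, and the log2 fold change was 1.74 (SE 0.20, adjusted p = 0.016). The adjusted p of CG31380 was 0.21 in the fit of the 4 libraries alone, 0.18 without labelled 51B/+ replicate 3, 0.13 without labelled 51B replicate 3 and 0.14 without labelled 51B replicate 4. Both genes were in the order w, labelled 51B, labelled 51B/+ from high to low, with no overlap between neighbours.

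Ir76a (FBgn0260874; 3L, 19799278 to 19803427), which belongs to the ionotropic receptor family of chemosensory receptors, had 46 and 33 counts in labelled 51B (1.36 and 1.64 CPM) and 9 and 3 counts in labelled 51B/+ (0.20 and 0.13 CPM). The level in w was 4.40 and 4.81 CPM. The log2 fold change was 3.09 (SE 0.35, adjusted p = 0.016). It was not called in the fit of the 4 libraries alone (adjusted p = 0.37), without labelled 51B/+ replicate 3 (0.14) or without labelled 51B replicate 4 (0.14). An exon of Ir76a overlaps CG14102 on the opposite strand, which had 1.30 and 1.44 CPM in labelled 51B and 1.14 and 0.92 CPM in labelled 51B/+. The gene with the largest adjusted p among those called was CG32073 (FBgn0052073; 3L, 11107008 to 11107582). It had 48 and 47 counts in labelled 51B, against 0 and 2 counts in labelled 51B/+, a ratio of 60.4 with a counting interval from 16.3 to 506 (adjusted p = 0.098). The call of CG32073 held in 7 of 15 alternatives. Without labelled 51B/+ replicate 3 its adjusted p was 0.36, without labelled 51B replicate 3 it was 0.23 and without labelled 51B replicate 4 it was 0.34.

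The remaining called genes were lower in labelled 51B. CG34278 (FBgn0085307; 3R, 17120465 to 17120808), which lies within cher on the opposite strand, had 1.36 and 1.89 CPM in labelled 51B and 102 and 66.5 CPM in labelled 51B/+. In w it was at 0.97 and 1.56 CPM, which overlapped labelled 51B, while V966M had 41.0 and 55.9 CPM and V966M/+ 46.0 and 16.1 CPM. The log2 fold change was -5.71 (SE 0.58, adjusted p = 0.011). Its adjusted p was 0.22 without labelled 51B replicate 3, 0.14 without labelled 51B replicate 4 and 0.10, just over the threshold, with the replicate number as a block. The host gene cher had 999 and 1140 CPM in labelled 51B and 1117 and 1227 CPM in labelled 51B/+. Mst87F (FBgn0002862; 3R, 13827151 to 13828008) encodes a structural protein of the sperm tail. It had 9 and 7 counts in labelled 51B (0.27 and 0.35 CPM), against 137 and 112 counts in labelled 51B/+ (3.00 and 4.90 CPM), with a log2 fold change of -3.69 (SE 0.43, adjusted p = 0.017). Both libraries of labelled 51B/+ were high for Mst87F, whereas the summed level of the testis genes was high in replicate 3 alone. An exon of Mst87F overlaps lncRNA:CR43300 on the opposite strand, which had 0.030 and 0.15 CPM in labelled 51B and 0.20 and 0.18 CPM in labelled 51B/+. V966M had 2.22 and 2.92 CPM of Mst87F, V966M/+ 3.04 and 4.15 CPM, and w 0.44 and 0.76 CPM. The adjusted p was 0.21 in the fit of the 4 libraries alone, 0.45 without labelled 51B replicate 3 and 0.21 without labelled 51B replicate 4.

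All 11 called genes were on chromosome 3, which carries AGO2 and 44.1% of the genes tested: 6 on 3L and 5 on 3R. Among the 100 genes with the smallest p, 79 were on chromosome 3, 5 on the mitochondrial genome and 16 on the other arms. In the longer lists of the other tools, 84 of 106 genes were on chromosome 3 by DESeq2 and 85 of 124 by the exact test of edgeR. For 9 of the 11 called genes, the mean of labelled 51B lay between those of labelled 51B/+ and w. The same held for 56 of the 100 genes with the smallest p and for 32.8% of all genes tested. These are descriptions of the same fit that gave the calls, and linkage on the chromosome and the dose of AGO2 cannot be told apart in this design.

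**Figure D3:**
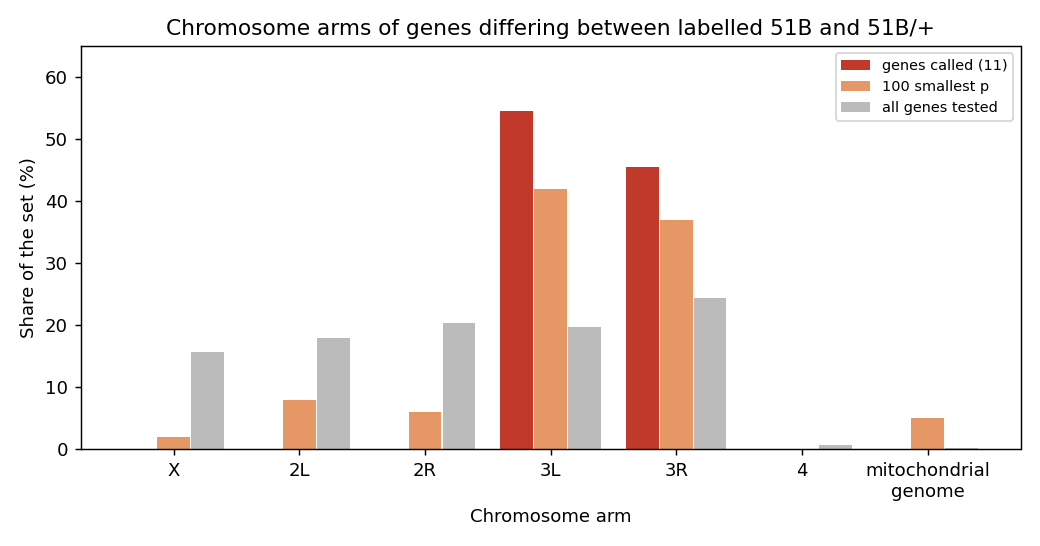
Share of genes on each chromosome arm among the 11 genes called (red), the 100 genes with the smallest p (orange) and all genes tested (grey). Arms 3L and 3R hold all 11 called genes and 79 of the 100 genes, but 44.1% of the genes tested.

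Some genes that were not called had large differences with the strains apart. On 3L, CG12522 had 6.30 and 14.1 CPM in labelled 51B and 0.44 and 0.044 CPM in labelled 51B/+ (log2 fold change 5.15, SE 0.82, adjusted p = 0.14). Its neighbour CG32071 had 48.6 and 69.0 CPM in labelled 51B and 6.42 and 3.81 CPM in labelled 51B/+ (3.51, SE 0.75, adjusted p = 0.38). CG12522, CG32071 and the called CG32073 lie within a stretch of 3L that is 4.45 Mb from AGO2, and all of them were higher in both libraries labelled 51B. Cpr67Fa1, a cuticle protein gene on the same arm, had 346 and 352 CPM in labelled 51B and 58.9 and 29.4 CPM in labelled 51B/+ (2.98, SE 0.63, adjusted p = 0.34). PGRP-SC1a, which encodes a peptidoglycan-degrading amidase, had 4.62 and 20.4 CPM in labelled 51B and 1.16 and 1.58 CPM in labelled 51B/+ (3.20, SE 0.81, adjusted p = 0.65). Its libraries of labelled 51B were themselves far apart.

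In the other direction, 6 genes were named by the same rule. LysD and LysX encode lysozymes, which cut bacterial cell walls and serve digestion in the larval gut. LysD had 2.19 and 5.71 CPM in labelled 51B and 24.0 and 105 CPM in labelled 51B/+ (log2 fold change -4.05, SE 0.75, adjusted p = 0.25). LysX had 9.08 and 6.56 CPM in labelled 51B and 15.9 and 45.2 CPM in labelled 51B/+ (-1.96, SE 0.52, adjusted p = 0.69). LysC is a pseudogene that overlaps an exon of LysD on the other strand. It had 2 and 1 counts in labelled 51B, against 69 and 437 counts in labelled 51B/+ (1.51 and 19.1 CPM). Its adjusted p was 0.66 by edgeR's quasi-likelihood test. The ratio of labelled 51B/+ over labelled 51B was 133, with a counting interval of 45.2 to 646 that leaves out the spread between libraries. LysC and LysD are similar and overlap, so how their reads were divided is uncertain. Mtk, the antimicrobial peptide metchnikowin, had 1.89 and 4.67 CPM in labelled 51B and 20.0 and 9.93 CPM in labelled 51B/+ (adjusted p = 0.79). CG4716 had 35.5 and 16.8 CPM in labelled 51B and 137 and 57.9 CPM in labelled 51B/+ (adjusted p = 0.38), and CG11300 had 124 and 151 CPM in labelled 51B and 568 and 408 CPM in labelled 51B/+ (adjusted p = 0.40). DESeq2 and the exact test of edgeR each called all 12 of the genes named in this way, the mitochondrial genes below included. Leaving out 1 library brought some of them under the threshold: CG12522 (adjusted p = 0.092) and CG4716 (0.051) without labelled 51B/+ replicate 4, LysC (0.083) without labelled 51B/+ replicate 3, and LysD without either (0.022 without replicate 3 and 0.078 without replicate 4).

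To describe which genes stayed level, the 95% interval of each log2 fold change was used, since a p over the threshold does not show that values are alike. For 7401 of the 13551 genes (54.6%) the whole interval lay within 1 in either direction, that is, within a 2-fold change. The share depended on the level of the gene. Over the 4 libraries, it was 82.3% of the 7968 genes that averaged 5 CPM or more, 46.7% of the 1707 genes from 1 to 5 CPM and 1.16% of the 3876 genes under 1 CPM. Genes of at least 5 CPM had a median absolute log2 fold change of 0.15 and a median half-width of the interval of 0.49. The median over all genes was -0.03, and it fell to -0.19 when libraries were scaled by their totals alone, a shift of -0.16 that is shared by the classes below. Of 48 gene classes, 43 had no gene called by edgeR's quasi-likelihood test, 34 had none by DESeq2 and 32 had none by the exact test of edgeR. These tests called few genes in all (11 of 13551, 106 of 13551 and 124 of 12661). A class without a call is thus not shown to be level. In 7 classes over 90% of the tested members had an interval within 1. In these 7 classes, DESeq2 and the exact test of edgeR called no gene either, and 2 genes (bocks and sxc) had an unadjusted p under 0.05.

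Most listed partners of AGO2 were among the level genes, in a share near that of well-expressed genes in general. In the list of 13 siRNA pathway and associated genes, AGO2 was the only one called by edgeR's quasi-likelihood test, and 10 had an interval within 1 (median 0.13). That is 76.9% of the list, beside 82.3% of all genes that averaged 5 CPM or more. Dcr-2, which makes the small interfering RNAs, had 67.4 and 57.5 CPM in labelled 51B and 55.6 and 52.7 CPM in labelled 51B/+ (log2 fold change 0.21, SE 0.27). Its partner r2d2 had 24.5 and 21.6 CPM in labelled 51B and 18.1 and 19.6 CPM in labelled 51B/+ (0.29, SE 0.15). These genes and pst were chosen for their role, after their values were seen. The gene pst, known for resistance to a virus, was not among the level genes: it had 240 and 270 CPM in labelled 51B and 73.5 and 104 CPM in labelled 51B/+ (1.52, SE 0.26, adjusted p = 0.14 by edgeR's quasi-likelihood test). DESeq2 (adjusted p = 3.4e-06) and the exact test of edgeR (7.1e-05) called pst, which lies on 3L. The gene blanks was not among the level genes either and had the lowest log2 fold change of the list (-2.26). It had 15 and 6 counts in labelled 51B and 129 and 17 counts in labelled 51B/+, so its high value was that of replicate 3. Hsc70-4, a chaperone that helps to load AGO2 and the most abundant of the list, had 2224 and 2378 CPM in labelled 51B and 2720 and 2442 CPM in labelled 51B/+ (-0.17, SE 0.23). All 9 genes of the miRNA pathway had an interval within 1, with a median of 0.00 and a range from -0.19 to 0.19. AGO1, the Argonaute protein of that pathway, is named for its role and had 150 and 137 CPM in labelled 51B and 154 and 116 CPM in labelled 51B/+. The piRNA pathway, which silences transposons in the germline, was less precisely measured, with 12 of 25 genes within 1, a median of 0.07 and no gene called. The 3 hairpin RNA loci, whose transcripts are precursors of endogenous siRNAs, were not called either: hpRNA:CR33940 had 5.71 and 8.20 CPM in labelled 51B and 8.43 and 9.01 CPM in labelled 51B/+ (-0.33, SE 0.24).

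Most genes of the nuclear machineries with which AGO2 has been described stayed level too. The shares below stand beside 82.3% of all genes that averaged 5 CPM or more. All 8 nuclear lamina genes tested had an interval within 1 (median -0.02). The list includes Lam, which encodes lamin B, is named for its role and had 102 and 116 CPM in labelled 51B and 107 and 120 CPM in labelled 51B/+ (log2 fold change -0.06, SE 0.19). LamC, the most abundant of the list, had 127 and 152 CPM in labelled 51B and 118 and 128 CPM in labelled 51B/+ (0.18, SE 0.19). The smallest p in the class belonged to bocks, a gene of an inner nuclear membrane protein, with 14.1 and 17.7 CPM in labelled 51B and 20.7 and 23.9 CPM in labelled 51B/+ (-0.49, SE 0.16, adjusted p = 0.79). Of 14 subunits of RNA polymerase II and the pausing complex NELF, 13 had an interval within 1 (median 0.02). Polr2A, the largest subunit, had 70.2 and 88.4 CPM in labelled 51B and 73.5 and 75.6 CPM in labelled 51B/+. The same held for 13 of 15 chromatin insulator genes (median -0.05) and for 19 of 20 Polycomb group genes (median -0.02). The exception in the Polycomb group was sxc, the O-GlcNAc transferase, at 97.6 and 95.9 CPM in labelled 51B and 61.5 and 65.9 CPM in labelled 51B/+ (0.60, SE 0.23, adjusted p = 0.79). Of the 8 Hox genes, which the Polycomb group represses outside their domains, 6 had an interval within 1 (median -0.09, range -0.41 to 0.17).

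Classes of general cell function differed in the share of level genes. Of 31 cell cycle and DNA replication genes, 30 had an interval within 1, with a median of 0.04 and log2 fold changes from -0.29 to 0.24. All 8 basement membrane genes did (median -0.06), among them LanB2, a laminin chain, with 127 and 135 CPM in labelled 51B and 145 and 164 CPM in labelled 51B/+ (log2 fold change -0.24, SE 0.18). Sex determination and dosage compensation genes were level in 14 of 15 cases (median -0.02). Sxl, the switch gene of female identity and the most abundant of them, had 116 and 114 CPM in labelled 51B and 87.9 and 84.9 CPM in labelled 51B/+ (log2 fold change 0.41, SE 0.27, adjusted p = 0.85). Of 85 genes of cytoplasmic ribosomal proteins, 60 had an interval within 1 (median -0.07), as did 30 of 46 proteasome genes (median -0.23, and -0.14 without labelled 51B replicate 4). Without labelled 51B/+ replicate 3, 38 proteasome genes were tested, with a median of -0.19. Of the 46 proteasome genes, 33 averaged at least 1 CPM over the 4 libraries, and 7 had no read in either library labelled 51B. Abundance alone did not give a narrow interval, as RpLP2, the most abundant ribosomal protein gene, had 2646 and 3000 CPM in labelled 51B and 3086 and 3235 CPM in labelled 51B/+, with an interval from -1.22 to 0.89. Without overlap, 27.1% of the ribosomal genes and 37.0% of the proteasome genes were lower in labelled 51B, beside 18.1% of all genes tested. No gene of either class was called by edgeR's quasi-likelihood test, DESeq2 or the exact test of edgeR, with 1 ribosomal and 2 proteasome genes lower at an unadjusted p under 0.05 and 0 higher. The ribosomal gene was RpL37-2, with 0 and 0 counts in labelled 51B and 44 and 2 counts in labelled 51B/+.

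**Figure D4:**
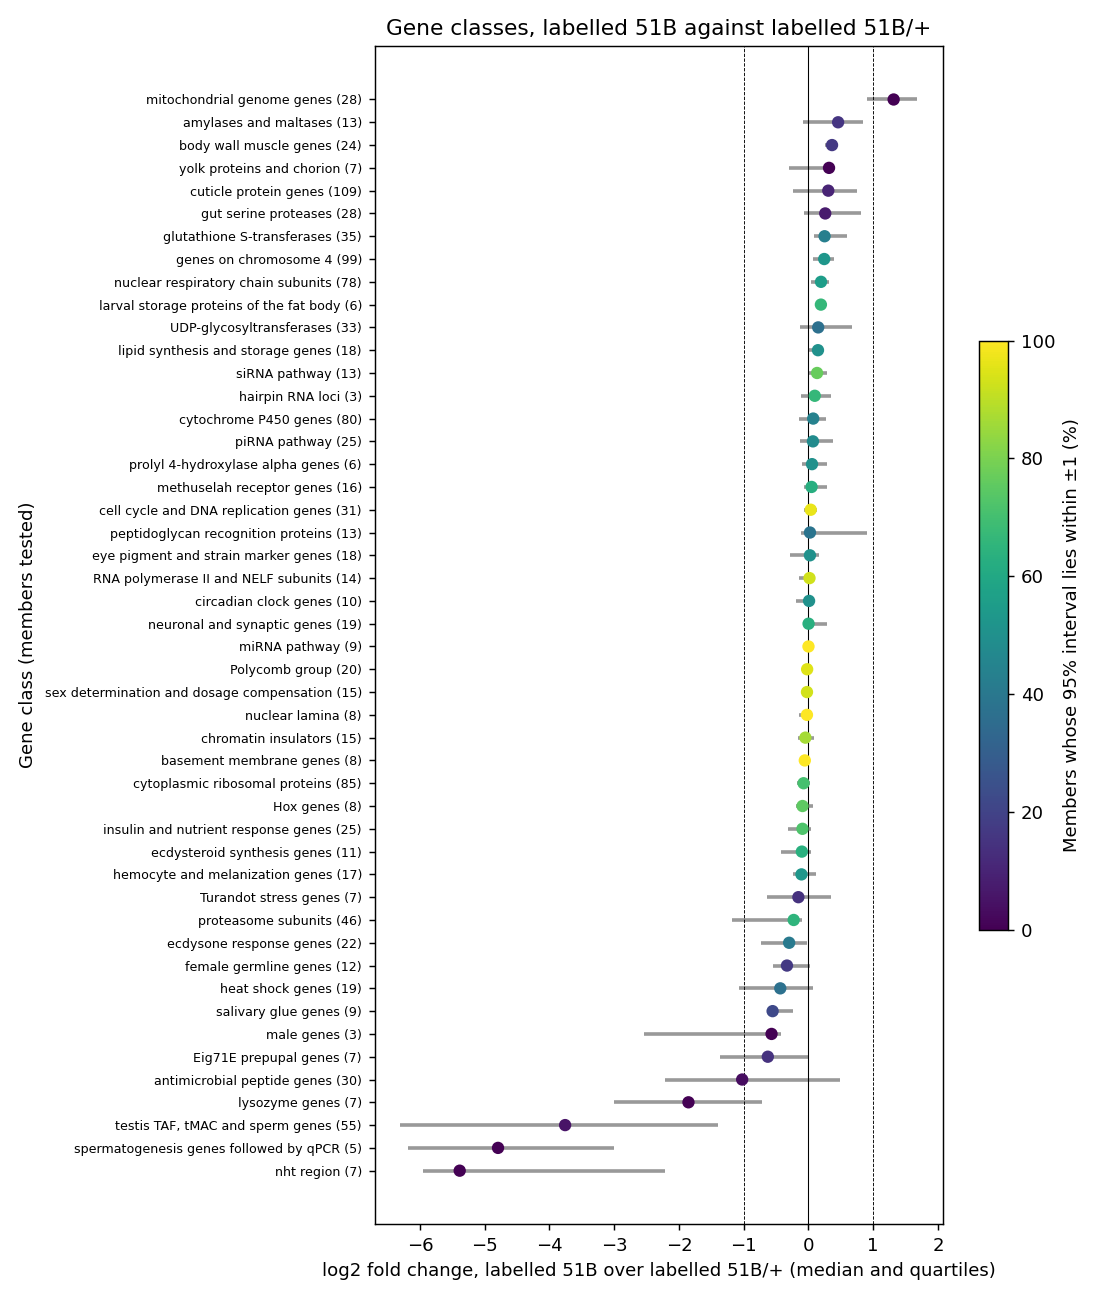
Median (points) and quartiles (bars) of the log2 fold change of labelled 51B over labelled 51B/+ in the 48 gene classes, with the number of tested members in brackets; colour gives the share of members whose 95% interval lies within 1 in either direction. The miRNA pathway, nuclear lamina and basement membrane genes lie at 0 with all members within 1, and the testis classes lie lowest with wide quartiles.

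In some classes most genes differed in the same direction with none called by edgeR's quasi-likelihood test. The 28 genes of the mitochondrial genome that were tested had a median log2 fold change of 1.32, with 10 higher and 0 lower at an unadjusted p under 0.05 by edgeR's quasi-likelihood test, and 64.3% were higher in labelled 51B without overlap, beside 16.8% of all genes tested. The most abundant, mt:lrRNA, had 154901 and 94072 CPM in labelled 51B and 89789 and 59131 CPM in labelled 51B/+ (0.74, SE 0.48, adjusted p = 0.85), so that replicate 3 was above replicate 4 in both strains. The smallest p was that of mt:ND6, a complex I subunit, with 78.0 and 250.4 CPM in labelled 51B and 21.9 and 21.1 CPM in labelled 51B/+ (2.93, SE 0.53, adjusted p = 0.19). A subunit of ATP synthase, mt:ATPase8, had 264 and 1752 CPM in labelled 51B and 97.5 and 93.6 CPM in labelled 51B/+ (3.40, SE 0.86, adjusted p = 0.66). It overlaps mt:ATPase6 on the same strand. For mt:ND6 and mt:ATPase8 the library of labelled 51B replicate 4 was the highest, unlike for mt:lrRNA. DESeq2 called 5 mitochondrial genes, mt:ND6 (adjusted p = 2.5e-06) and mt:ATPase8 (0.00034) among them, and the exact test of edgeR 9. Over all genes, these tools called 106 of 13551 and 124 of 12661. Without labelled 51B replicate 3, mt:ND6 was called (adjusted p = 0.034), and the median of the class ran from 1.11 to 1.41 over the fits that left out 1 library.

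Subunits of the respiratory chain that the nuclear genome encodes differed less. Their median was 0.19 over 78 genes, with 43 of them (55.1%) within 1, beside 54.6% of all genes tested. Without overlap, 51.3% were higher, and 16.8% of all genes tested is the share to set beside this and the classes below. Contractile genes of the body wall muscle had a median of 0.36 over 24 genes, with 17 higher without overlap (70.8%) and 0 lower. Their log2 fold changes ran from 0.09 to 0.58 with 0 called, 0 at an unadjusted p under 0.05 by the same test and 0 called by DESeq2 or the exact test of edgeR. Act57B, the larval muscle actin and the most abundant, had 10736 and 12719 CPM in labelled 51B and 10410 and 7776 CPM in labelled 51B/+ (0.37, SE 0.47). The median ratio of the muscle genes was 0.12 within replicate 3 and 0.59 within replicate 4, and the library of labelled 51B/+ replicate 4 was the lowest in the sum (51812 and 56093 CPM in labelled 51B, against 47788 and 38763 CPM in labelled 51B/+). Without labelled 51B/+ replicate 4 the median was 0.22. Genes on chromosome 4 had a median of 0.24 over 99 genes, with 46.5% higher without overlap, and the glutathione S-transferases, which conjugate toxins, had a median of 0.25 over 35 genes, with 45.7%. Without labelled 51B replicate 3 the median of the chromosome 4 genes was 0.10. Without labelled 51B/+ replicate 4 that of the transferases was 0.38, and without labelled 51B/+ replicate 3 that of the respiratory chain subunits was 0.30. The exact test of edgeR called 1 gene on chromosome 4 (PlexB) and 1 transferase (GstD7) higher, and DESeq2 called none of either class. Over all genes, these tools called 61 of 12661 and 55 of 13551 higher. GstD1, the most abundant of the transferases, had 1138 and 1529 CPM in labelled 51B and 860 and 1016 CPM in labelled 51B/+ (0.51, SE 0.29, adjusted p = 0.80). When libraries were scaled by their totals alone, the medians of the muscle, respiratory chain, chromosome 4 and transferase classes were 0.21, 0.04, 0.09 and 0.09, all still above the -0.19 of all genes.

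**Figure D5:**
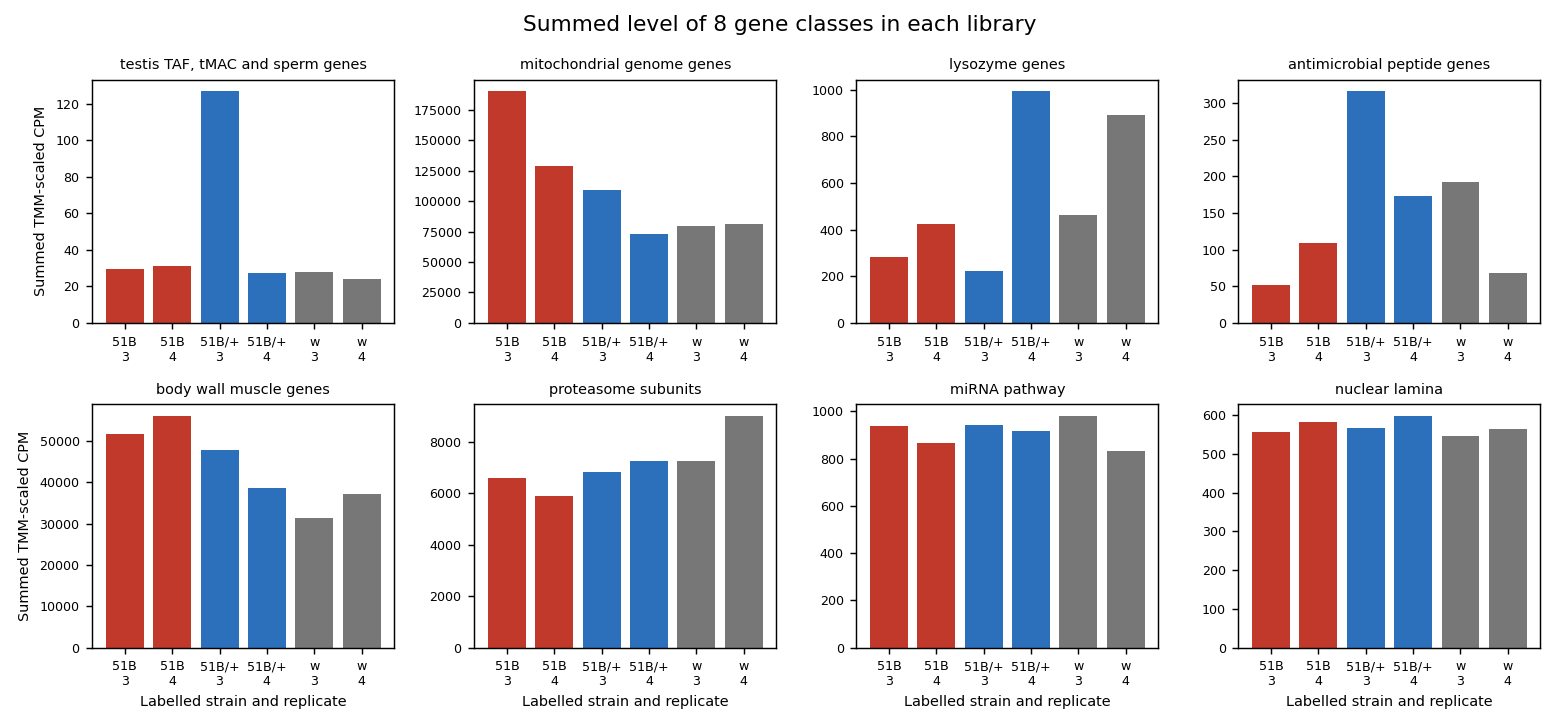
Summed TMM-scaled CPM of 8 gene classes in each library of labelled 51B (red), labelled 51B/+ (blue) and w (grey), each panel with its own axis from 0. The testis list is high in labelled 51B/+ replicate 3 alone (127 CPM), the mitochondrial genes are highest in labelled 51B replicate 3, and the miRNA pathway and lamina genes are alike in all 6 libraries.

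Immune and digestive classes varied between the libraries of a strain. For comparison with the calls below, DESeq2 called 55 genes higher and 51 lower of 13551 tested. The exact test of edgeR called 61 higher and 63 lower of 12661. The 7 lysozyme genes had a median of -1.85, with no interval within 1 and 0 called by edgeR's quasi-likelihood test, 4 lower at an unadjusted p under 0.05 and 4 called lower by DESeq2 and by the exact test of edgeR. Their summed level was 285 and 424 CPM in labelled 51B, against 223 and 993 CPM in labelled 51B/+, so that the sums overlapped. The median was -0.99 without labelled 51B/+ replicate 4. The most abundant, LysS, had 217 and 299 CPM in labelled 51B and 83.9 and 403 CPM in labelled 51B/+ (log2 fold change 0.08, SE 0.68). The 30 antimicrobial peptide genes tested had a median of -1.02, with 0 called, 1 higher and 7 lower at an unadjusted p under 0.05, and 1 higher and 4 lower called by DESeq2. They summed to 51.2 and 110 CPM in labelled 51B, against 316 and 173 CPM in labelled 51B/+. DptA, a diptericin and the most abundant, had 7.13 and 23.3 CPM in labelled 51B and 156 and 18.0 CPM in labelled 51B/+, and its high value was that of labelled 51B/+ replicate 3. Without that library the median of the antimicrobial peptide genes was -0.24. BomT3, a bomanin with the smallest p of the list, had 0.36 and 0.50 CPM in labelled 51B and 4.14 and 1.75 CPM in labelled 51B/+ (-2.83, SE 0.59, adjusted p = 0.29). Salivary glue genes had a median of -0.55 over 9 genes, with none called by any of the 3 tools and 1 lower at an unadjusted p under 0.05. It was -0.34 without labelled 51B/+ replicate 3. Cuticle protein genes had a median of 0.31 over 109 genes, with 0 called, 7 higher at an unadjusted p under 0.05 and 2 called higher by DESeq2. The median was 0.09 without labelled 51B replicate 3, 0.16 without labelled 51B/+ replicate 4 and 0.48 without labelled 51B/+ replicate 3. Lcp3, the most abundant, had 8790 and 12365 CPM in labelled 51B and 7767 and 8951 CPM in labelled 51B/+ (0.34, SE 0.45).

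The values of the testis genes rested on 1 library. Of 55 testis genes tested, Mst87F was the only one called by edgeR's quasi-likelihood test and by its exact test, and 21 were lower at an unadjusted p under 0.05. DESeq2 called betaTub85D, a testis tubulin gene named for this call, as well (adjusted p = 0.037). It had 0.33 and 0.30 CPM in labelled 51B and 6.77 and 0.61 CPM in labelled 51B/+, so its high value was that of replicate 3. The median log2 fold change was -3.76, and 19 members had no read in either library labelled 51B. With these at the floor of 3 counts per library the median was -2.26, and without labelled 51B/+ replicate 3 it was 0.22. The spermatogenesis genes that the study followed by qPCR showed the same pattern. The study reports spermatogenesis genes, nht among them, as up-regulated in null mutant larvae, by sequencing and by qRT-PCR. It also reports that a mutation of nht suppressed this rise. By the strain labels the direction here was the opposite, with the high counts in a library labelled 51B/+. The library of labelled 51B/+ replicate 3 had 225 counts of Hsp60C, 219 of TrxT, 68 of Cyt-c-d, 129 of blanks and 21 of nht, which encodes a testis TAF. The other library of labelled 51B/+ had 0, 0, 1, 17 and 0 counts of these genes. In labelled 51B the counts were 5 and 0 for Hsp60C, 0 and 1 for TrxT, 2 and 3 for Cyt-c-d, 15 and 6 for blanks, and 0 and 0 for nht. None of these 5 genes was called by edgeR's quasi-likelihood test, DESeq2 or the exact test of edgeR, although 3 were lower at an unadjusted p under 0.05. In the nht region no gene was called by any of these tools, and 1 was lower at an unadjusted p under 0.05. There, labelled 51B/+ replicate 3 had 18 counts of CG4161, 15 of CG15260, 23 of CG15262, 11 of ms(2)35Ci, 10 of CG15258, 22 of CG31798 and 2 of CG31797. The other 3 libraries had at most 4 counts of each of these, and CG15263 had 0 counts in all 4. The level of CG31798 was not particular to this library, with 17 and 2 counts in V966M, 20 and 10 in V966M/+, and 23 and 7 in w. The male-specific RNA lncRNA:roX2 had 2 and 0 counts in labelled 51B, against 75 and 1 counts in labelled 51B/+, and lncRNA:roX1 had 1013 and 397 counts in labelled 51B, against 2764 and 298 counts in labelled 51B/+. Both were also counted in the female libraries of w, lncRNA:roX2 at 28 and 60 and lncRNA:roX1 at 2586 and 888. The part of male RNA or testis tissue in these values was not tested.

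Whether the difference followed the null allele or was shared by the catalytic allele was examined by an interaction term in the same fit, the difference of labelled 51B minus labelled 51B/+ less that of V966M minus V966M/+. The AGO2 level gives no check of the labels of the V966M strains. An exchange of the labels 51B and 51B/+ alone would change the size of each interaction, and its sign only where the difference between these strains is the larger. The sample titles of both pairs of strains have the same form. An exchange within both pairs would keep the size of each interaction and turn its sign. The interaction was called in 12 genes (0.0886% of those tested), 7 of which were among the 11 genes above. AGO2 had 236 and 163 CPM in V966M and 249 and 194 CPM in V966M/+, and its difference between the labelled strains was larger for 51B by 5.07 on the log2 scale (SE 0.41, adjusted p = 0.0037). Lsp1gamma had 18097 and 18134 CPM in V966M and 10310 and 5137 CPM in V966M/+ (interaction 5.99, SE 0.55, adjusted p = 0.0054). Jon74E had 168 and 212 CPM in V966M and 285 and 458 CPM in V966M/+ (interaction 4.52, SE 0.45, adjusted p = 0.0075). CG31380 was higher in labelled 51B than in labelled 51B/+, and its difference was larger still between V966M, with 6.28 and 6.19 CPM, and V966M/+, with 0.33 and 0.24 CPM (interaction -2.68, SE 0.30, adjusted p = 0.018). The interaction of CG7900 was 0.82 (SE 0.22, adjusted p = 0.38) and that of Mst87F was -3.20 (SE 0.56, adjusted p = 0.17), so neither was called. Without 1 of the 4 libraries, 7 to 20 genes were called in the interaction, with 7 without labelled 51B replicate 4 and 20 without labelled 51B/+ replicate 4.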

How the data were processed

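Polyadenylated RNA of whole female larvae was sequenced as 50-base single-end reads in 10 libraries, 2 for each of 5 strains. By their methods and processing notes, the authors trimmed reads with cutadapt 1.10, aligned them to dm6 with HISAT2 2.0.4 and counted reads per FlyBase gene with featureCounts 1.5.0-p3. Strand was ignored in the counting. A deposited table of raw counts for 17402 genes, neither normalized nor pooled by the authors, was the only file used. Reads shared by overlapping genes or near-identical copies may be lost or divided. Coordinates and symbols (17210 genes) came from the Ensembl annotation of dm6.

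Genes with at least 10 counts over the 10 libraries were tested (13551). Counts were TMM-scaled and fitted by strain in all 10 libraries in edgeR 4.0.16 (R 4.3.3), using robust glmQLFit and its quasi-likelihood test, the contrast being labelled 51B minus labelled 51B/+. Calls needed a Benjamini-Hochberg adjusted p under 0.1. The SE is the log2 fold change over the root of F, and intervals use the total degrees of freedom. Ratios within a replicate number used CPM plus 0.5. The ratio of a gene with at most 3 counts in each library of a strain is that of summed counts with an exact 95% interval. The test was also run on simulated counts, drawn with no effect of replicate number and no outlying library. That run cannot show how the test behaves where these are present.

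Named genes were AGO2, the genes called, and up to 6 more in each direction, those with the largest fold change among genes not called with a mean of at least 5 CPM, an unadjusted p under 0.01 and no overlap of the strains. Of a gene class, the most abundant member and that with the smallest p could be named, and all qPCR and nht region genes. The comparison, its gene classes and its tests were chosen with earlier results of these data known. Alternatives were DESeq2 1.42.0, the exact test of edgeR, other normalizations, filters and thresholds, the 4 libraries alone, the replicate number as a block, and leaving out each of the 4 libraries.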

Additional observations from a re-analysis of the deposited data

Results flagged for a closer look

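In 12 genes the difference of labelled 51B minus labelled 51B/+ itself differed from that of V966M minus V966M/+, by the interaction term of edgeR's quasi-likelihood test at an adjusted p under 0.1. The interaction is given below on the log2 scale, and each value follows the labels. AGO2 had an interaction of 5.07 (adjusted p = 0.0037), as its level differed by 4.92 between labelled 51B and labelled 51B/+ and by -0.15 between V966M and V966M/+. The interaction was 5.99 for Lsp1gamma (0.0054), 4.52 for Jon74E (0.0075), 3.66 for Ir76a (0.022), -6.35 for CG34278 (0.022) and -9.24 for lncRNA:CR46061 (0.0037). For CG31380 it was -2.68 (0.018), with the same direction for both alleles as labelled and the larger difference, 4.41, between V966M and V966M/+.

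In 5 more genes the term was called although the difference between labelled 51B and labelled 51B/+ was not. CG32198 had an interaction of -8.07 (adjusted p = 0.0054) and stood at 239 and 148 CPM in labelled 51B, 593 and 249 CPM in labelled 51B/+, 152 and 215 CPM in V966M, and 1.94 and 0.97 CPM in V966M/+. The low strain was thus V966M/+, as it was for GstD3 (interaction -2.73, adjusted p = 0.074), CG9396 (-3.43, 0.079) and CG8160 (-2.21, 0.0075). CG13461, on 3L, had an interaction of 4.98 (0.073) and was low in labelled 51B/+, with 4.35 and 2.24 CPM in labelled 51B, 0.31 and 0.22 CPM in labelled 51B/+, and 16.7 and 18.3 CPM in w.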

How the results depend on the processing

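The 11 genes called kept their direction in every alternative, and of 343 values of named genes 291 kept their side of the threshold, 22 lost the call, 30 gained it and 0 reversed. DESeq2 called 106 genes (55 higher, 51 lower) and 230 interactions, the exact test of edgeR 124 (61 higher, 63 lower), the 4 libraries alone 6 (4 higher), scaling by library totals alone 18 (7 lower), and no count filter 23 (13 higher, 10 lower) with 24 interactions. Leaving out 1 library gave 7 to 171 calls, 5 to 50 higher, 1 to 121 lower and 7 to 20 interactions, with 171 calls and 20 interactions without labelled 51B/+ replicate 4. No label says that a replicate number marks a shared batch. Same-numbered libraries of labelled 51B and labelled 51B/+ deviated together with a correlation of 0.23, those of other pairs of strains from 0.0037 to 0.59 (over 0.1 in 8 of all 10 pairs), and replicate 3 had more reads and a higher mitochondrial share in all 5 strains. With the replicate block there were 18 calls (15 higher, 3 lower), 10 of them among the 11, and 17 interactions. Genes with an interval within 1 numbered 5680 to 8021 over the alternatives. The cause of these changes was not tested. Limits were 2 libraries a strain, low counts (1.16% of genes under 1 CPM had an interval within 1), whole larvae as the tissue, an AGO2 level that went against the labels, and labelled 51B/+ replicate 3, whose testis genes set the median of that class.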
